A study of Homo sapiens with 4 samples.

Results

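The nucleolar ribosome assembly factors described here are 50 listed genes of ribosome assembly and RNA polymerase I. They were found by gene symbol among the probe sets of a human whole-transcript array. A named probe set was found for 34 of the 50, among 14884 genes with a named probe set in all. BOP1 was the only measured factor with more than 1 probe set, and its brightest one by mean was taken. The other 16 factors (UTP20, UTP4, UTP15, RRP9, TSR1, IMP3, IMP4, PES1, GNL3, DDX18, PPAN, NOP56, DKC1, POLR1A, POLR1B and NPM1) were not analysed here. RNA came from ARP-1 and MM.1S, established human lines grown from multiple myeloma, the plasma cell cancer. There were 4 arrays: MIF-KO ARP-1, CTR-KO ARP-1, MIF-KO MM.1S and CTR-KO MM.1S, 1 for each line and condition. MIF-KO cells carried a lentiviral short hairpin RNA against the cytokine MIF and CTR-KO cells a control hairpin, and in both conditions cells positive for green fluorescent protein were sorted. A hairpin lowers a transcript without deleting the gene, and each line stands for 1 tumour, so the word KO is kept only as a label.

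Ribosomes are made in the nucleolus, where RNA polymerase I transcribes a long precursor RNA. Small nucleolar ribonucleoproteins (snoRNPs) modify this precursor, and large sets of assembly factors fold, cut and export the parts that become the small and the large subunit. Many of these genes carry a binding site of the transcription factor MYC and are used heavily by growing cells. Plasma cells and myeloma cells, which secrete antibody chains, depend on a large supply of ribosomes.

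The titles and genotype labels name the same condition for each array, but for ARP-1 the free text of either array names the opposite one. Arrays are called here by their titles, and each direction in ARP-1 rests on that choice. MIF itself was at an intensity of 541 on MIF-KO ARP-1 and 1092 on CTR-KO ARP-1, and at 405 on MIF-KO MM.1S and 1012 on CTR-KO MM.1S. It was therefore lower on the array titled MIF-KO in each line. Array medians lay between 13.1 and 13.3 on the intensity scale. Of the 8 plasma cell markers, 6 were named on the array and all 6 were above the median gene, among them IRF4 and XBP1, transcription factors of plasma cells. Of the surface markers among them, SDC1 and CD38 went with the assembly factors in both lines. SDC1 was at 184 on MIF-KO ARP-1 against 471 on CTR-KO ARP-1, and at 471 on MIF-KO MM.1S against 337 on CTR-KO MM.1S. CD38 was at 41.8 on MIF-KO ARP-1 against 114 on CTR-KO ARP-1, and at 56.2 on MIF-KO MM.1S against 41.0 on CTR-KO MM.1S. The surface marker SLAMF7 was nearly level in ARP-1, at 122 with MIF-KO and 120 with CTR-KO. In MM.1S it was at 80.35 with MIF-KO and 62.08 with CTR-KO. MZB1 ran opposite to the factors, at 774 on MIF-KO ARP-1 against 566 on CTR-KO ARP-1. In MM.1S it was at 399 with MIF-KO and 615 with CTR-KO. IRF4 and XBP1 were higher on MIF-KO ARP-1 (4380 and 1321) than on CTR-KO ARP-1 (3579 and 930). In MM.1S they were nearly level, at 3834 and 1056 with MIF-KO and 3853 and 1096 with CTR-KO. The part of these markers in the result was not tested. Of 12 named markers of mature B cells, T cells, monocytes, fibroblasts and epithelium, 3 lay above the median gene, namely CD8A, CD68 and KRT18. CD68, a marker of macrophages, was at 56.9 on MIF-KO ARP-1 and 227 on CTR-KO ARP-1, and at 122 on MIF-KO MM.1S and 80.8 on CTR-KO MM.1S, the order the assembly factors showed; its part in their result was not tested. The defining monocyte marker CD14 stayed between 7.94 and 10.2 on all 4 arrays. In bulk RNA, fewer cells of a type and less RNA per cell cannot be told apart.

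Assembly factor transcripts were lower with MIF-KO in ARP-1 but higher with MIF-KO in MM.1S, each against the CTR-KO array of its line. In ARP-1 all 34 measured factors were lower on the MIF-KO array, where 52.3% of the 7442 genes tested were lower. A difference of at least 1.5-fold downward was seen in 25 of the 34, against 11.9% of all tested genes, and one of at least 2-fold in 8, against 2.9%. An upward difference of 1.5-fold was seen in 0 of the 34, against 10.9%. The median difference of the factors in ARP-1, log2 of MIF-KO over CTR-KO, was -0.82, or 0.566 times the CTR-KO level, while the median of all tested genes was -0.03. In MM.1S 32 of the 34 were higher on the MIF-KO array, against 55.1% of tested genes. There 7 were at least 1.5-fold higher, against 5.12% of tested genes, and 0 were as far lower, against 2.89%. The median of the factors in MM.1S was 0.38, or 1.30 times the CTR-KO level, and that of all tested genes 0.04. With 1 array per line and condition these differences have no replicate error and no test. The factors were also chosen with earlier results of these data known, in which RRS1, RRP12, TCOF1 and DDX21 had been named.

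Both directions together, down with MIF-KO in ARP-1 and up with it in MM.1S, held for 32 of the 34 factors and for 37.5% of tested genes. At 1.5-fold in each line it held for 7 factors (BOP1, GRWD1, LYAR, MRTO4, NAT10, NOP16 and RRP1B), or 20.6% of them, against 3.24% of tested genes. Not 1 factor differed by 1.5-fold the same way in both lines, and 0.0806% of tested genes did. Across the 34 factors the differences of the lines went with each other inversely, at Pearson r = -0.66 and Spearman rho = -0.75, so factors further below their CTR-KO level in ARP-1 tended to be further above it in MM.1S. Over all tested genes Pearson r was -0.56 (both are across genes of the same 4 arrays, and genes are not independent replicates).

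**Figure D1:**
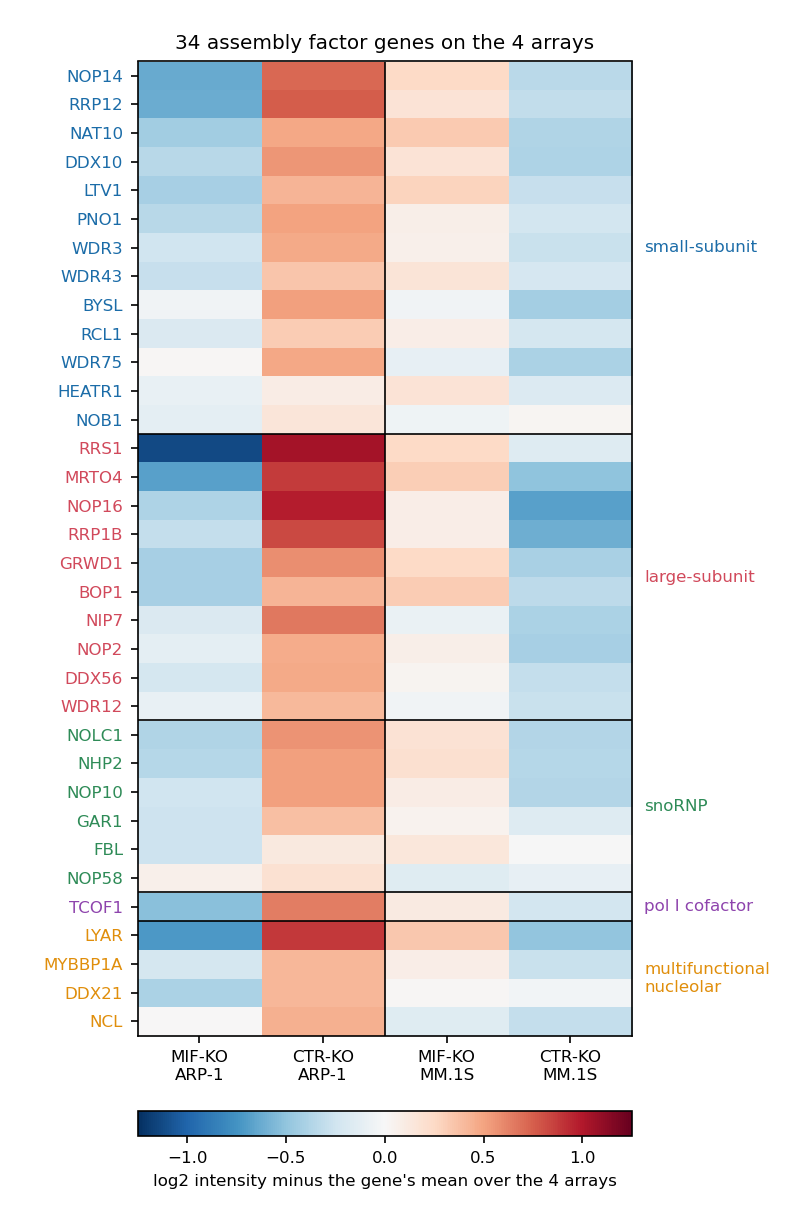
Log2 intensity of each of the 34 measured factors (rows, grouped and coloured by class) minus its mean over the 4 arrays (columns). Red is above and blue below the gene's own mean. CTR-KO ARP-1 is the reddest column and was the highest of the 4 arrays for 32 of the 34 genes.

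The small-subunit factors, of which 13 of 20 were measured, build and mature the precursor of the small subunit. With MIF-KO all 13 were lower in ARP-1, 8 by 1.5-fold or more, and 12 were higher in MM.1S, 1 by that much. The shares of all tested genes at 1.5-fold, here and for the classes below, were 11.9% lower in ARP-1 and 5.12% higher in MM.1S. The 1 of 13 is close to the latter share. Their median difference was -0.73 in the ARP-1 pair and 0.37 in the MM.1S pair. NOP14, a scaffold of the early small-subunit particle, had intensities of 320 in MIF-KO ARP-1 and 816 in CTR-KO ARP-1, and of 586 in MIF-KO MM.1S and 392 in CTR-KO MM.1S. It thus differed by -1.35 in the ARP-1 pair and 0.58 in the MM.1S pair. RRP12, a repeat protein needed in yeast for export of the subunits, had 197 in MIF-KO ARP-1 and 511 in CTR-KO ARP-1, and 341 in MIF-KO MM.1S and 244 in CTR-KO MM.1S. For both genes CTR-KO ARP-1 was highest and MIF-KO ARP-1 lowest.

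NAT10, an acetyltransferase of ribosomal RNA, was the small-subunit factor 1.5-fold apart in both lines. Its intensities were 409 in MIF-KO ARP-1 and 773 in CTR-KO ARP-1, and 694 in MIF-KO MM.1S and 425 in CTR-KO MM.1S, with differences of -0.92 and 0.71. The helicase DDX10 had 80.04 in MIF-KO ARP-1 and 149 in CTR-KO ARP-1, and 115 in MIF-KO MM.1S and 77.95 in CTR-KO MM.1S. For DDX10 and the 2 factors that follow, CTR-KO ARP-1 and MIF-KO MM.1S were the higher arrays. LTV1, which leaves the particle late in maturation, had 330 in MIF-KO ARP-1 and 594 in CTR-KO ARP-1, and 534 in MIF-KO MM.1S and 362 in CTR-KO MM.1S. PNO1, the partner of the nuclease NOB1, had 107 in MIF-KO ARP-1 and 193 in CTR-KO ARP-1, and 144 in MIF-KO MM.1S and 116 in CTR-KO MM.1S.

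The smallest difference between the responses of the lines in this class was that of NOB1. The nuclease, which makes the final cut of the small-subunit RNA, had 897 in MIF-KO ARP-1 and 1088 in CTR-KO ARP-1, and 939 in MIF-KO MM.1S and 994 in CTR-KO MM.1S. Its differences of -0.28 and -0.08 had the same sign in both lines, unlike those of its partner PNO1 at -0.85 and 0.31. The UTP-A complex binds the growing precursor RNA first, and 3 of its 5 subunits among the listed factors were measured. Of these, WDR43 differed by -0.63 in the ARP-1 pair and 0.37 in the MM.1S pair, WDR75 by -0.47 and 0.29, and HEATR1 by -0.18 and 0.34. The remaining small-subunit factors were WDR3 (-0.73 in the ARP-1 pair and 0.34 in the MM.1S pair), BYSL (-0.55 and 0.39) and RCL1 (-0.502 and 0.304).

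Large-subunit factors, of which 10 of 14 were measured, had the largest class median of the classes with several measured genes, -0.92 in the ARP-1 pair and 0.57 in the MM.1S pair. With MIF-KO all 10 were lower in ARP-1, 9 by 1.5-fold or more, and all 10 were higher in MM.1S, 5 by that much. The difference between classes was not tested, because members of a class are not replicates of it. RRS1, which in yeast brings the small ribosomal RNA of the large subunit into the particle, had 181 in MIF-KO ARP-1 and 812 in CTR-KO ARP-1, and 470 in MIF-KO MM.1S and 354 in CTR-KO MM.1S. MIF-KO ARP-1 lay at 0.222 times CTR-KO ARP-1, the widest step among the 34 factors.

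MRTO4 holds the place of the stalk protein on the immature large subunit. It had 162 in MIF-KO ARP-1 and 474 in CTR-KO ARP-1, and 321 in MIF-KO MM.1S and 182 in CTR-KO MM.1S, which are differences of -1.55 and 0.81. NOP16 had 167 in MIF-KO ARP-1 and 432 in CTR-KO ARP-1, and 231 in MIF-KO MM.1S and 136 in CTR-KO MM.1S. RRP1B had 267 in MIF-KO ARP-1 and 581 in CTR-KO ARP-1, and 346 in MIF-KO MM.1S and 215 in CTR-KO MM.1S. In NOP16 and RRP1B the lowest array was CTR-KO MM.1S, whereas in RRS1 and MRTO4 it was MIF-KO ARP-1. GRWD1, whose yeast counterpart is the chaperone of a ribosomal protein, had 721 in MIF-KO ARP-1 and 1438 in CTR-KO ARP-1, and 1145 in MIF-KO MM.1S and 727 in CTR-KO MM.1S.

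BOP1 and WDR12 work in the PeBoW complex with PES1. BOP1 differed by -0.83 in the ARP-1 pair and 0.65 in the MM.1S pair on its brighter probe set, and with the mean of its probe sets it was no longer 1.5-fold higher in MM.1S, so that 6 factors instead of 7 were. WDR12 differed least in the class, with 181 in MIF-KO ARP-1 and 256 in CTR-KO ARP-1, and 187 in MIF-KO MM.1S and 160 in CTR-KO MM.1S. NIP7 differed by -0.84 and 0.32, the RNA methyltransferase NOP2 by -0.59 and 0.49, and the helicase DDX56 by -0.69 and 0.34.

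The snoRNP proteins, 6 of 8 measured, belong to or assist the particles that modify ribosomal RNA. With MIF-KO all 6 were lower in ARP-1, 4 by 1.5-fold or more, and 5 were higher in MM.1S, 0 by that much. The medians were -0.70 in the ARP-1 pair and 0.33 in the MM.1S pair. The proteins of the box H/ACA particle, which turns uridine into pseudouridine and is also part of telomerase, stood together. NHP2 had 196 in MIF-KO ARP-1 and 358 in CTR-KO ARP-1, and 288 in MIF-KO MM.1S and 196 in CTR-KO MM.1S. NOP10 had 417 in MIF-KO ARP-1 and 707 in CTR-KO ARP-1, and 529 in MIF-KO MM.1S and 385 in CTR-KO MM.1S. GAR1 had 78.8 in MIF-KO ARP-1 and 122 in CTR-KO ARP-1, and 97.0 in MIF-KO MM.1S and 84.2 in CTR-KO MM.1S.

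The core proteins of the box C/D particle, which methylates ribose, differed less than those of the box H/ACA particle, with medians of -0.25 (2 genes) against -0.76 (3 genes) in ARP-1 and of 0.05 against 0.46 in MM.1S; this was not tested. NOP58 had 1433 in MIF-KO ARP-1 and 1563 in CTR-KO ARP-1, and 1236 in MIF-KO MM.1S and 1283 in CTR-KO MM.1S, the smallest difference in ARP-1 among the 34 factors. The methyltransferase FBL differed by -0.38 in the ARP-1 pair and 0.15 in the MM.1S pair. NOLC1, a chaperone of both kinds of particle, had 456 in MIF-KO ARP-1 and 874 in CTR-KO ARP-1, and 668 in MIF-KO MM.1S and 459 in CTR-KO MM.1S. NOLC1 thus resembled the box H/ACA proteins in size, at -0.94 and 0.54.

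Of the polymerase I members 1 of 3 was measured, so the class has no spread. Its polymerase subunits, POLR1A and POLR1B, could not be compared with the assembly factors. The subunits POLR1F and POLR1H, from a further list, are given below. TCOF1, the cofactor treacle that links polymerase I transcription to processing, had 85.5 in MIF-KO ARP-1 and 191 in CTR-KO ARP-1, and 133 in MIF-KO MM.1S and 105 in CTR-KO MM.1S. Its differences were -1.16 in the ARP-1 pair and 0.34 in the MM.1S pair. In ARP-1 it lay below the median of every other class, and in MM.1S near that of the snoRNP proteins.

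The multifunctional nucleolar proteins, 4 of 5 measured, had medians of -0.72 in the ARP-1 pair and 0.25 in the MM.1S pair. LYAR, a nucleolar regulator of growth, had 62.4 in MIF-KO ARP-1 and 190 in CTR-KO ARP-1, and 130 in MIF-KO MM.1S and 72.9 in CTR-KO MM.1S, and was the only one of the 4 that was 1.5-fold apart in both lines. MYBBP1A, which binds MYB and acts on ribosomal RNA genes, had 126 in MIF-KO ARP-1 and 196 in CTR-KO ARP-1, and 156 in MIF-KO MM.1S and 122 in CTR-KO MM.1S. DDX21, a helicase of polymerase I transcription, had 1100 in MIF-KO ARP-1 and 1925 in CTR-KO ARP-1, and 1460 in MIF-KO MM.1S and 1410 in CTR-KO MM.1S. DDX21 was therefore apart in ARP-1 and nearly level in MM.1S. Nucleolin, NCL, had 172 in MIF-KO ARP-1 and 232 in CTR-KO ARP-1, and 154 in MIF-KO MM.1S and 139 in CTR-KO MM.1S.

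**Figure D2:**
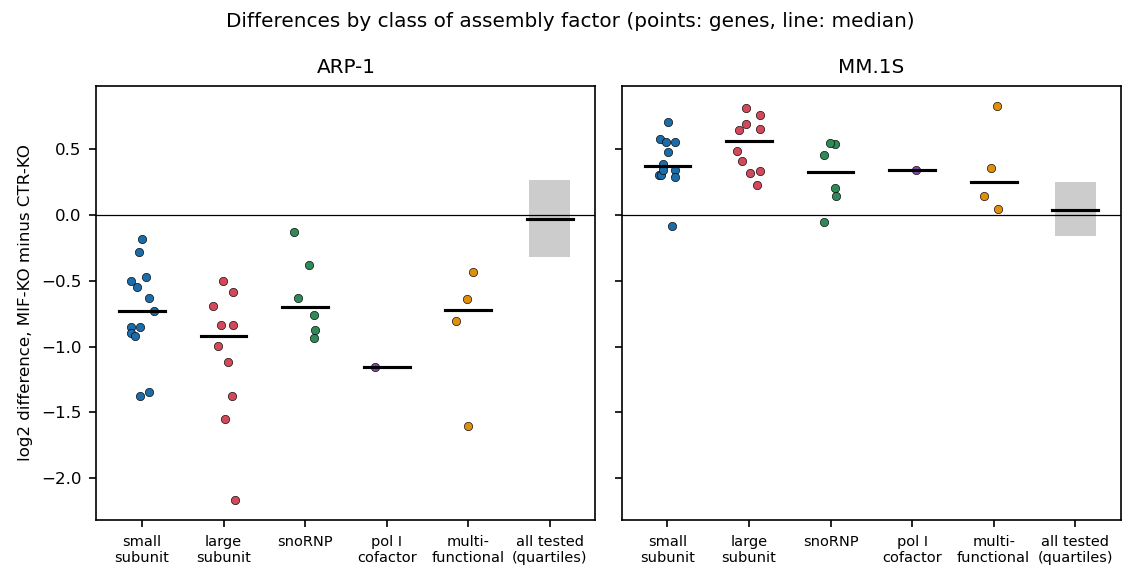
Log2 difference, MIF-KO minus CTR-KO, of each measured factor by class (points), with the class median (black line), in ARP-1 (left) and MM.1S (right). The grey bar spans the quartiles of all tested genes with their median. All points lie below 0 in ARP-1, and all but NOB1 and NOP58 lie above 0 in MM.1S.

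Set against its own mean per gene, the median level of the 34 in ARP-1 lay at -0.29 with MIF-KO and 0.48 with CTR-KO, and in MM.1S at 0.09 with MIF-KO and -0.31 with CTR-KO. CTR-KO ARP-1 was the highest array for 32 of the 34 factors, against 32% of tested genes. For 28 of the 34, CTR-KO ARP-1 was highest and MIF-KO MM.1S second, an order found in 19.7% of tested genes. MIF-KO ARP-1 lay near CTR-KO MM.1S, and these lower arrays were less than 1.5-fold apart in 33 of 34 factors, close to the 93.4% of tested genes, and RRS1 was the exception at -0.97. By the titles, the contrast between lines differed in sign between conditions. Among CTR-KO arrays the factors were lower in MM.1S than in ARP-1 by a median of -0.86, with 26 of 34 at least 1.5-fold lower against 11.1% of tested genes. Among MIF-KO arrays they were higher in MM.1S by a median of 0.40, with 10 of 34 at least 1.5-fold higher against 8.22%. These values rest on the ARP-1 titles. If those were exchanged, the control contrast would set MIF-KO ARP-1 (as titled) beside CTR-KO MM.1S, with a median ARP-1 minus MM.1S difference of -0.0073, and the knockdown contrast CTR-KO ARP-1 (as titled) beside MIF-KO MM.1S, with one of 0.41.

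**Figure D3:**
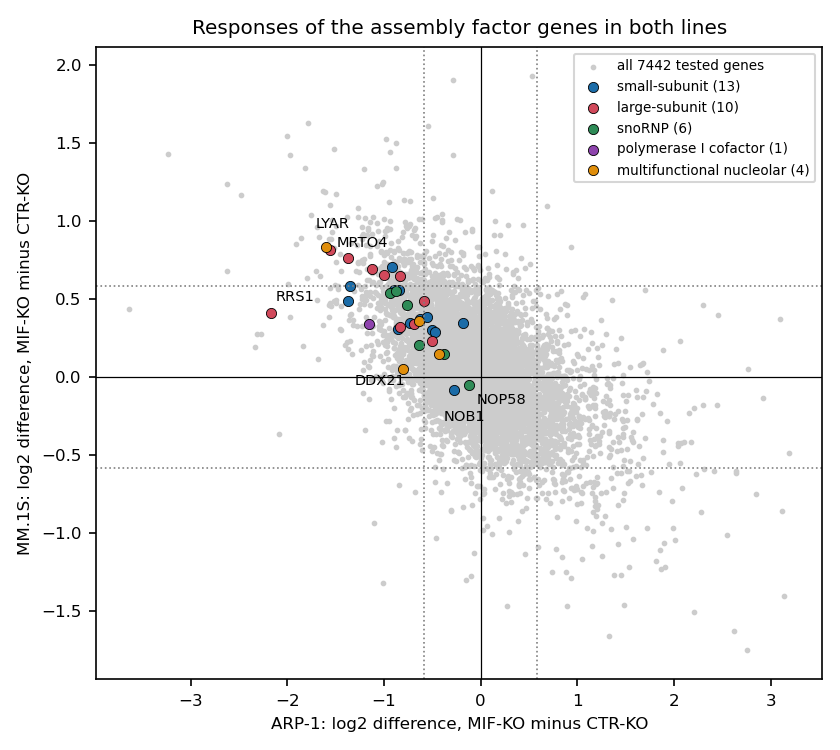
Log2 difference, MIF-KO minus CTR-KO, in ARP-1 (horizontal axis) and in MM.1S (vertical axis) for the 34 factors (coloured by class) and all tested genes (grey). Dotted lines mark 1.5-fold. The factors lie in the upper left of the plot except NOB1 and NOP58, just below the horizontal axis.

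Over both lines no factor passed the test. The model (limma, with terms for cell line and condition, n = 2 arrays per condition) called 0 of 34 factors at an adjusted p below 0.05, against 0% of the 7442 genes. At an unadjusted p below 0.05 it found 0 factors and 29 genes. MIF itself was among the 29 (limma unadjusted p = 0.0104) but was not called either. It differed by -1.01 in the ARP-1 pair and -1.32 in the MM.1S pair, so differences of that size in both lines did not suffice for a call. The median difference of the factors over both lines was -0.17, and 0.01 over all tested genes. The error of this test draws on how far the lines disagree for a gene, with 1 residual degree of freedom. It is moderated towards a spread pooled over the tested genes, with 3.99 prior degrees of freedom. Opposite differences therefore enter it in part as error: RRS1 had a mean difference of -0.88 with an SE of 0.65, and MRTO4 of -0.37 with an SE of 0.61. The contrast of MM.1S against ARP-1 over both conditions in the same limma model also called 0 factors, against 0% of tested genes, with 0 factors and 87 genes at an unadjusted p below 0.05. Separate cultures are not mentioned by the labels. The error behind these p-values is then only the moderated disagreement of the lines across these 4 samples. Technical spread may be part of it and cannot be told apart.

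If the descriptions instead of the titles were right for ARP-1, the ARP-1 differences would change sign and the lines would move the same way. With the ARP-1 arrays exchanged, limma called 12 of 34 factors, all higher in MIF-KO, against 5.39% of tested genes. By adjusted p these were MRTO4, LYAR, NOP16, GRWD1, RRP1B, NAT10, NOP14, NOLC1, RRP12, RRS1, LTV1 and BOP1. MRTO4 then had a mean difference of 1.18 (SE 0.21, limma adjusted p = 0.0173) and LYAR of 1.22 (SE 0.22, limma adjusted p = 0.0174). Under the exchange MIF would be higher on the array called MIF-KO in ARP-1. Without the CTR-KO ARP-1 array, and with no term for cell line, the median of the factors over the 3 remaining arrays was 0.21, of opposite sign to the median with all arrays.

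Other genes of ribosome assembly stood the same way, with smaller medians. Of 36 further small-subunit factors 26 were tested, with a median of -0.62 in the ARP-1 pair and 0.29 in the MM.1S pair. Of the 26, 13 were at least 1.5-fold lower in MIF-KO ARP-1 and 2 at least 1.5-fold higher in MIF-KO MM.1S. The shares of all tested genes were 11.9% and 5.12%, so the 2 of 26 is close to the share of all genes. The kinase RIOK1 differed by -1.68 in the ARP-1 pair and 0.11 in the MM.1S pair, NOL11 by -0.98 and 0.80, and NOL6 by -1.16 and 0.62. Of 45 further large-subunit factors 35 were tested, with a median of -0.57 in the ARP-1 pair and 0.27 in the MM.1S pair, 15 at least 1.5-fold lower in MIF-KO ARP-1 and 6 at least 1.5-fold higher in MIF-KO MM.1S. PAK1IP1 differed by -2.27 and 0.27, MAK16 by -1.49 and 0.73, and NOC3L by -1.18 and 0.62. With MIF-KO, 24 of the 26 small-subunit and 32 of the 35 large-subunit genes were lower in ARP-1, and 25 and 29 were higher in MM.1S. Among all tested genes 52.3% were lower in ARP-1 and 55.1% higher in MM.1S. The 5 that were higher in ARP-1 were UTP25, EMG1, RSL24D1, ZNF622 and NOP53, and ZNF622 and NOP53 were also lower in MM.1S. Of these NOP53, a late factor that recruits the exosome, differed by at least 1.5-fold, at 0.87 in the ARP-1 pair and -0.73 in the MM.1S pair. These 5 were named after their values were seen.

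Of 13 further genes of the polymerase I machinery 3 were tested: the subunit POLR1F differed by -0.94 in the ARP-1 pair and 0.60 in the MM.1S pair, the initiation factor RRN3 by -0.36 and 0.33, and the subunit POLR1H by -0.75 and -0.17. The RNA exosome, which trims ribosomal precursors, had 12 of 14 genes tested, with medians of -0.47 and 0.33. EXOSC2 differed by -0.86 and 0.82, EXOSC7 by -0.81 and 0.51, and the exosome helicase MTREX by -0.605 and 0.66. Limma called 0 genes of each of these lists over both lines.

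MYC, the transcription factor known to drive this pathway, did not share the pattern at the transcript level. Its intensity was 1308 in MIF-KO ARP-1 and 1169 in CTR-KO ARP-1, and 1214 in MIF-KO MM.1S and 1297 in CTR-KO MM.1S, which are differences of 0.16 and -0.10. All 4 arrays thus lay close together, and CTR-KO ARP-1 was the lowest of them. The 10 tested genes of the MYC network had medians of -0.09 in the ARP-1 pair and -0.12 in the MM.1S pair. Within it the repressors that compete with MYC for the partner MAX varied. MXD1 (-0.17 and -0.21) and MNT (-0.05 and -0.20) had the same sign in both lines and were named after their values were seen. MXD4 had 135 in MIF-KO ARP-1 and 62.7 in CTR-KO ARP-1, and 78.7 in MIF-KO MM.1S and 154 in CTR-KO MM.1S, the reverse of the assembly factors. MXI1 was also reversed, at 66.7 in MIF-KO ARP-1 and 30.4 in CTR-KO ARP-1, and 55.9 in MIF-KO MM.1S and 89.3 in CTR-KO MM.1S. MXD3, a repressor of the same family known from proliferating cells, ran with the factors, at 113 in MIF-KO ARP-1 and 216 in CTR-KO ARP-1, and 165 in MIF-KO MM.1S and 115 in CTR-KO MM.1S.

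**Figure D4:**
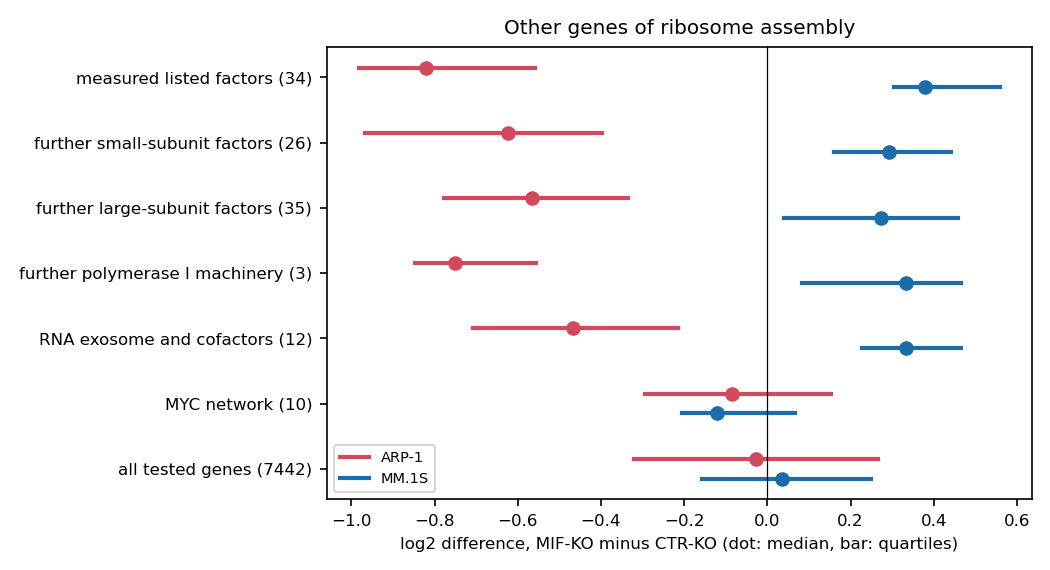
Median (dot) and quartiles (bar) of the log2 difference, MIF-KO minus CTR-KO, for the measured factors, further lists of the pathway, the MYC network and all tested genes, in ARP-1 (red) and MM.1S (blue), with the number of tested genes in brackets. The assembly lists lie left of 0 in ARP-1 and right of 0 in MM.1S, while the medians of the MYC network lie at -0.09 and -0.12.

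Promoters were read because the factors stood together and because the E-box CACGTG, which reads the same on both strands, is the preferred site of MYC with MAX. RefSeq promoter windows (GRCh38.p14, from 250 bases before to 50 bases after a start site) were given for 42 of the 50 listed factors, measured or not, and none was given for NOP58, DDX18, RRP12, RRP1B, TCOF1, BOP1, NOLC1 and RRS1. An E-box stood in a window of 21 of the 42 genes, or 50%, against 8.77% of all 27305 genes with a window and 13.3% of the 5948 genes with a window that were tested on the arrays. By class it was 11 of 19 small-subunit, 4 of 10 large-subunit, 3 of 6 snoRNP, 0 of 2 polymerase I and 3 of 5 multifunctional genes. In 20 of the 21 genes an E-box had at least 12 bases of the window on either side. Of these 20, 13 had such an E-box after the start site. E-boxes nearer the end of a window were not counted here. The windows below are shown because their genes span the response, from LYAR and MRTO4, far apart in both lines, to FBL, which differed little. Capitals mark the E-box.
NOP14, chr4:2963374-2963403, minus strand: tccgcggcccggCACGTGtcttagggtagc
NAT10, chr11:34105602-34105631, plus strand: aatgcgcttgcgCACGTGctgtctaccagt
LTV1, chr6:143843354-143843383, plus strand: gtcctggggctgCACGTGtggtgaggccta
PNO1, chr2:68157885-68157914, plus strand: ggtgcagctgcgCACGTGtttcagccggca
MRTO4, chr1:19251807-19251836, plus strand: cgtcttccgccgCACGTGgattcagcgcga
LYAR, chr4:4290068-4290097, minus strand: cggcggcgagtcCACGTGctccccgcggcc
NOP10, chr15:34343130-34343159, minus strand: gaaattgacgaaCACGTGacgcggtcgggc
DDX21, chr10:68956604-68956633, plus strand: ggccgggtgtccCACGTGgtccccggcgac
FBL, chr19:39846356-39846385, minus strand: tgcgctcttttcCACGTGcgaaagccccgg

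Counted from the start site, the E-box of NAT10 began at -15, that of NOP10 shown above at -11, that of DDX21 at -31 and that of LYAR at -64. Those of NOP14 (16), LTV1 (29), PNO1 (10), MRTO4 (15) and FBL (7) began after it. DDX21 and LYAR had 2 windows each, and the position is given from a single start site. Among measured factors, the 15 with an E-box had a median of -0.76 in the ARP-1 pair and 0.39 in the MM.1S pair, and the 12 without one -0.71 and 0.34. The 7 with no window given had medians of -1.12 and 0.48. The differences between these sets were not tested. A match describes the letters of the window and is not evidence of binding.

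**Figure D5:**
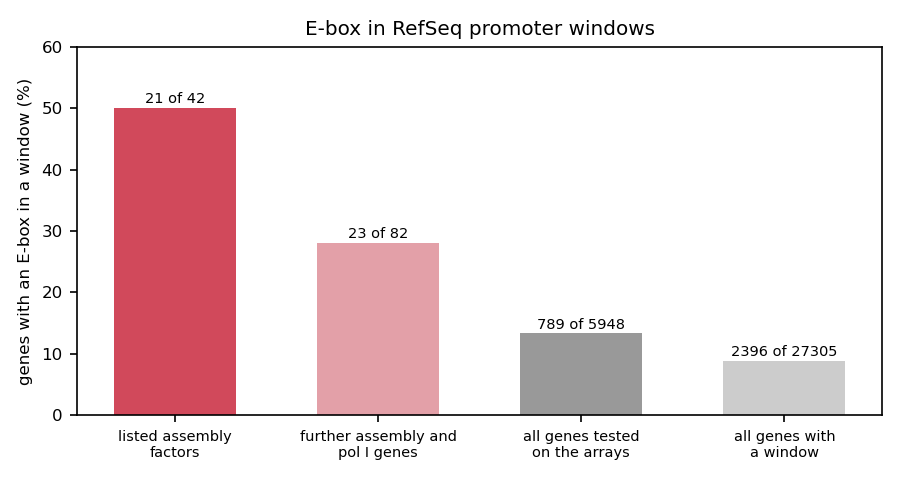
Percent of genes with an E-box in a RefSeq promoter window, for the listed assembly factors, further assembly and polymerase I genes, all genes tested on the arrays and all genes with a window, with counts above the bars. The listed factors stand at 50%, and all genes with a window at 8.77%.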

How the data were processed

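The authors deposited 1 table of probe set intensities on a linear scale (53617 probe sets, 4 arrays, from 2.74 to 15935). Per the submitters' processing notes the tools were RMA and limma, listed without role or version, and the genome build is not given in the sources used here. Deposited values had been expected to be log2 and were found to be linear intensities, so log2 of the deposited values was taken with no pseudocount. GEO's platform annotation gave 1 symbol for 16098 probe sets and several for 0, and the other 37519 are unnamed here. Per gene the probe set with the highest mean was used (14884 genes). Genes at or above the median gene mean (4.97, log2) were tested, 7442 in number, and all 34 measured factors passed this filter, the lowest at a mean of 5.69.

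The fit was limma 3.58.1 (R 4.3.3), with terms for cell line and condition and eBayes with a trend, which leaves 1 residual degree of freedom. P-values were adjusted by Benjamini-Hochberg across the 7442 genes. The labels pair arrays by cell line; same-line arrays deviated from their condition means with r = -0.37. The number of arrays limits the precision, and values per line rest on 1 array each. Factors, classes, lists and tests were chosen with earlier results of these data known. Values on all arrays are printed for MIF, for the factors with the largest differences between the responses of the lines (6 small-subunit, 5 large-subunit, 4 snoRNP, 3 multifunctional and the measured polymerase I member), for the factor with the smallest such difference in each larger class, and for RRS1, RRP12, TCOF1 and DDX21, named in earlier results. Up to 3 genes per further list, and MYC, followed the same measure. Alternatives were the filter, the cell line term, the exchange of the ARP-1 arrays, array scaling, a pseudocount, the probe set rule, the trend and leaving out arrays.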

Additional observations from a re-analysis of the deposited data

Results flagged for a closer look

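The responses of ARP-1 and MM.1S, MIF-KO minus CTR-KO, had opposite signs for the factors as a whole and for each class with several measured genes. The response in ARP-1 minus that in MM.1S, taken between the medians on the log2 scale, was -1.20 over the 34 factors, -1.10 for small-subunit, -1.48 for large-subunit, -1.03 for snoRNP and -0.98 for multifunctional nucleolar genes. This difference between lines was not tested, because each line has 1 array per condition.

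Single factors that were at least 1.5-fold lower in MIF-KO ARP-1 and at least 1.5-fold higher in MIF-KO MM.1S differed between the lines by -2.44 (LYAR), -2.37 (MRTO4), -2.13 (NOP16), -1.81 (RRP1B), -1.65 (GRWD1), -1.63 (NAT10) and -1.48 (BOP1). These differences were not tested either. A further 25 factors had opposite signs at a smaller size in at least 1 line, RRS1 among them at -2.58.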

How the results depend on the processing

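Exchanging the ARP-1 arrays, as their descriptions would have it, moved the results most. The number of factors called over both lines was then 12 of 34 instead of 0, against 5.39% of tested genes instead of 0%. The number at least 1.5-fold lower in MIF-KO ARP-1 was 0 instead of 25, against 10.9% of tested genes instead of 11.9%. The ARP-1 median was 0.82 instead of -0.82, and the median over both lines was 0.58 instead of -0.17. The sign of that last median also depended on the arrays kept. It was -0.82 with ARP-1 alone and 0.38 with MM.1S alone, values with no test. With each array left out in turn and no cell line term, it ran from -0.57 (without CTR-KO MM.1S) to 0.21 (without CTR-KO ARP-1), with -0.38 without MIF-KO MM.1S and -0.01 without MIF-KO ARP-1, and limma called 0 factors each time, the lone array being assumed to vary like the others. Without the replicate block, that is without the cell line term that pairs the arrays, limma called 0 factors.

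With no filter, the stricter filter, median shift or quantile scaling of the arrays, a pseudocount of 16, the mean of a gene's probe sets, or no trend, limma called 0 factors over both lines and 0 between lines. The ARP-1 median then lay between -0.83 and -0.76, and the MM.1S median between 0.33 and 0.39. Of the 34 factors, 21 to 25 were at least 1.5-fold lower in MIF-KO ARP-1 (21 of 29 under the stricter filter) and 6 or 7 at least 1.5-fold higher in MIF-KO MM.1S. Arrays give no depth, so signal over background could not be judged.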

Other observations

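A second promoter motif was counted after the E-box result had been seen, for comparison. The ETS-type site CCGGAAG, counted on both strands, stood in a window of 15 of the 42 listed factors, or 35.7%, against 12.2% of all genes with a window and 23.6% of the tested genes with one. Among 82 further assembly and polymerase I genes with a window the order of the motifs was the other way round, with the ETS-type site in 51.2% and the E-box in 28%. Over all tested genes with a window, the 789 with an E-box had a median difference of -0.10 in ARP-1 and 0.07 in MM.1S, and the 5159 without one -0.03 and 0.03.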
